A study of Mus musculus with 31 samples.

Results

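The RNA on ribosomes in the central and the peripheral axon branch of mouse nociceptive sensory neurons was compared, each branch relative to the somas collected in its own batch. The comparison used 16 of the 31 libraries of the series, all from Nav1.8-Cre;L10a-eGFP-fl/fl mice, in 4 groups of 4 libraries labelled as biological replicates. Batch 1 held central axons (lumbar dorsal roots with spinal cord) and somas numbered 1 to 4 (lumbar dorsal root ganglia). Batch 2 held peripheral axons (sciatic nerve) and somas numbered 5 to 8. The quantity compared was the log2 level in central axons minus batch 1 somas, minus the log2 level in peripheral axons minus batch 2 somas. A positive value is therefore higher in the central and a negative value higher in the peripheral branch, relative to soma. In these mice Cre recombinase under control of Nav1.8 (gene Scn10a, a voltage-gated sodium channel) turns on ribosomal protein L10a fused to GFP, and ribosomes were pulled down by the tag (translating ribosome affinity purification, TRAP). The 15 other libraries came from mice that carry L10a-eGFP-fl/fl without Cre, processed in the same way: 4 of central axons, 3 of peripheral axons and 4 of somas in each batch. The labels give no age or sex, the tag marks the Nav1.8 lineage rather than all sensory neurons, and root, spinal cord and nerve hold many other cells. Axon and soma samples differ in input as well (under 100 pg and under 1 ng of RNA per the labels), and the p-values measure the spread between these libraries.

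A nociceptor of the dorsal root ganglion has a single process that splits, sending a peripheral branch through the nerve to the skin and viscera and a central branch through the dorsal root into the dorsal horn, where it forms glutamatergic synapses. Both branches receive mRNAs from the soma, and these can be translated far from it, classically those for ribosomal proteins, mitochondrial proteins and cytoskeletal proteins. The surroundings of the branches differ: peripheral axons run among Schwann cells, fibroblasts and perineurial cells, whereas central axons end among spinal interneurons, astrocytes and oligodendrocytes.

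Total counts of the 16 libraries ran from 4.10 to 19.6 M (M, mega), with peripheral axon libraries 1 and 3 the shallowest. A level of 3 counts, taken as the floor, corresponded to 0.153 to 0.732 CPM (counts per M counts of the library). Scn10a had 421, 105, 123 and 45.1 CPM in central axons, 312, 461, 362 and 505 CPM in batch 1 somas, 42.1, 304, 116 and 156 CPM in peripheral axons and 335, 374, 313 and 432 CPM in batch 2 somas. Of the axon libraries, 3 central and all 4 peripheral ones lay below every soma library of their batch. The difference between the branches, close to 0, was -0.027 (SE 0.79, edgeR adjusted p = 1). Rpl10a, the gene of the tagged protein, had a difference of -0.28 (SE 0.50, adjusted p = 0.76). Mitochondria-encoded genes took 0.720 to 1.92% of the counts of peripheral axon libraries and 0.0184 to 0.342% of the other Cre libraries. In bulk samples of this kind, fewer cells of a type and less RNA per cell cannot be told apart.

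With edgeR's quasi-likelihood test and Benjamini-Hochberg adjustment over all 16725 genes tested, 2187 genes were called at an adjusted p under 0.05. Of these, 1204 (7.2% of the genes tested) were higher and 983 (5.88%) lower in central than in peripheral axons relative to soma, and the median over all genes tested was 0.26. The balance of directions depended on the setting: 1087 were higher and 1148 lower with RLE scaling, 1001 and 1125 with TMMwsp, 1028 and 1169 with a stricter filter, 2164 and 1015 with voom, and 925 and 1161 without batch 1 soma library 3. Among the 1204 higher genes, 594 (49.3%) were called lower in peripheral axons than in somas without a call in central axons, 380 (31.6%) were called higher in central axons without a call in peripheral axons, and 111 (9.22%) had both. Among the 983 lower genes, 692 (70.4%) were called higher in peripheral axons and not called in central axons, 153 (15.6%) were called lower in central axons and not called in peripheral axons, and 55 (5.60%) had both. Branch by branch, 1435 genes (8.58%) were higher and 745 (4.45%) lower in central axons than in their somas, with a median of 0.14 over all genes. In peripheral axons 2463 genes (14.7%) were higher and 2458 (14.7%) lower than in their somas, with a median of -0.094. With scaling by library size alone, 2437 genes were higher and 359 lower in central axons, and 3104 higher and 1622 lower in peripheral axons. The number called between branches was 1394 without batch 2 soma library 8, the largest drop from leaving out a single library.

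The somas of the 2 batches differed from each other in 1203 genes (7.19%), 1099 of them lower in batch 1, so a difference between branches can also come from the soma term. Of the genes called between branches, 126 (10.5%) of the higher and 75 (7.63%) of the lower were also called between the somas. For 144 of the higher and 90 of the lower genes, the soma difference was larger than the direct difference between axons. The direct difference had the opposite sign for 76 of the higher and 5 of the lower genes. In a simulation that gave every gene the same spread, the same test recovered 53 of 200 genes changed by 3 on the log2 scale. It recovered 0 of 200 genes changed by 2. Real genes differ in spread and 2187 were called, so these simulated shares do not describe the test on the real data. Fitted together with the Cre-negative libraries, the comparison called 1 gene in place of 2187, the biological coefficient of variation being 0.618 in the Cre fit and 1.21 over all libraries. The same difference computed within the 15 control libraries called 0 of 15880 genes (0%), although 2458 genes had an unadjusted p under 0.05 and DESeq2 called 731. In sign, 857 of the 1109 higher genes and 811 of the 958 lower genes that could be tested in the controls went the same way there as in the Cre libraries, against 52.6% positive over all genes.

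Gad1, Slc12a5, Mal and Cldn19 are markers of spinal neurons (Gad1, Slc12a5) and of myelin-forming cells (Mal, Cldn19). Gad1 (chr2:70553072-70602014 in mm10, plus strand), the enzyme that makes GABA, was at 37.2, 169, 104 and 103 CPM in central axons and 2.90, 1.27, 6.99 and 4.37 CPM in batch 1 somas. In peripheral axons it was at 0.730, 0.664, 0.732 and 1.39 CPM and in batch 2 somas at 3.87, 2.96, 3.26 and 3.43 CPM. All 4 central libraries lay far above every other Cre library, and the peripheral libraries lay below every batch 2 soma. The difference was 6.57 (SE 0.75, adjusted p = 9.6e-05). Slc12a5 (chr2:164960802-164999731, plus strand), the neuronal potassium-chloride cotransporter KCC2, was at 55.5, 243, 85.8 and 319.6 CPM in central axons. It was at no more than 1.19 CPM in any other Cre library, so that its difference, with each group raised to at least the floor, was 8.31 (adjusted p = 9.6e-05).

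Mal (chr2:127633226-127656695, minus strand), a myelin and lymphocyte proteolipid, had 1423, 352, 456 and 696 CPM in peripheral axons against 25.8, 24.6, 11.1 and 24.3 CPM in central axons. Its somas were at 16.6, 35.2, 37.7 and 32.5 CPM in batch 1 and 26.9, 29.0, 18.6 and 22.6 CPM in batch 2, overlapping with central axons and far below every peripheral library. The difference was -5.43 (SE 0.56, adjusted p = 4.2e-05). Cldn19 (chr4:119255414-119262438, plus strand), a tight junction protein of Schwann cells, was at 347, 138, 229.9 and 242 CPM in peripheral axons and at no more than 5.95 CPM in any library of the 3 other groups. Its difference was -8.78 (SE 1.07, adjusted p = 0.00015). The controls without a tagged ribosome held these RNAs at levels within the range of the Cre libraries on the side where each was high: Gad1 at 128 to 163 CPM and Slc12a5 at 258 to 304 CPM in central controls, and Mal at 362 to 1153 CPM and Cldn19 at 158 to 252 CPM in peripheral controls. Gad1 had no count in the 3 peripheral controls. What part RNA from other cells had in these differences was not tested.

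**Figure D1:**
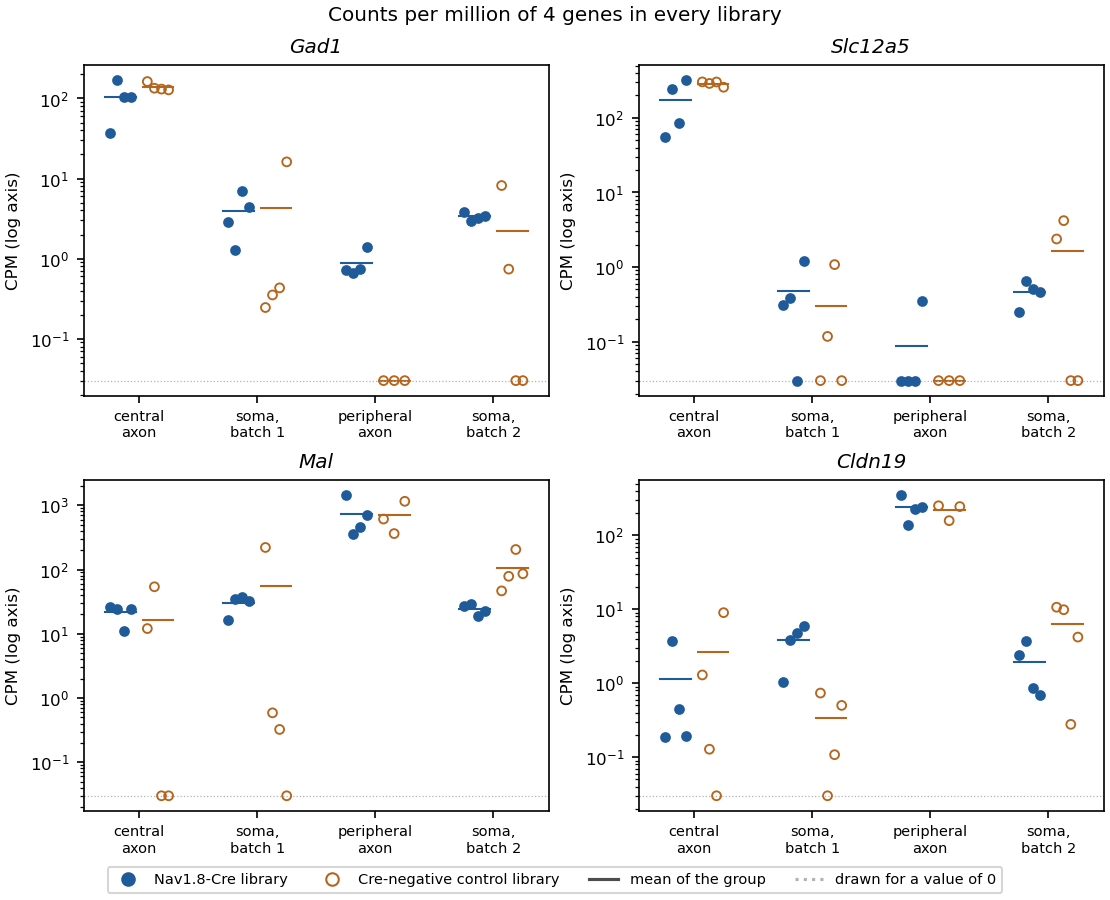
CPM of Gad1, Slc12a5, Mal and Cldn19 in each library on a log axis, with Cre libraries filled, Cre-negative controls open and lines at group means. Gad1 and Slc12a5 stand high in central axon libraries and Mal and Cldn19 in peripheral ones, with and without Cre.

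Marker lists of spinal cells held genes higher in the central branch and few lower. Of 9 spinal inhibitory neuron markers tested, 4 were called higher and 0 lower, with a median of 6.57, or 5.11 with groups raised to the floor. They included Slc6a5, the glycine transporter GlyT2, at 5.40 on the floored scale. Their summed level was 204 to 603 CPM in central axons, 11.8 to 16.9 CPM in their somas, 0.732 to 9.76 CPM in peripheral axons and 8.86 to 19.1 CPM in their somas. Gad2, Slc32a1 and Lhx5 had no count in any library of the 3 groups other than central axons. For such genes the peripheral term has no value, and the 3 were not called between branches although each was called higher in central axons than in somas. Of 7 markers of other spinal neurons, 2 were called higher, Slc12a5 and the NMDA receptor subunit gene Grin1 (3.38). Without batch 2 soma library 7, 2 inhibitory neuron genes were called.

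Astrocyte markers were on the same side: 7 of 10 were called higher and 0 lower, with a median of 5.73 (5.75 floored). Among them were Aqp4, the water channel of astrocyte endfeet (7.95), and Slc1a2, the glutamate transporter GLT-1 (4.70). Their sum was 359 to 1639.8 CPM in central axons, 7.59 to 46.6 CPM in batch 1 somas and 24.4 to 58.3 CPM in peripheral axons. The lowest central library was thus above the highest of both other groups. Of 8 oligodendrocyte markers 2 were called higher, the transcription factor genes Olig1 (7.78, floored) and Nkx6-2 (2.54, floored). The median was 3.29 and 2 members had negative values. Mag was at -3.62 to -2.32 with single libraries left out. With DESeq2, RLE scaling or a replicate block 1 member was called lower. Mog, Opalin, Ermn and Hapln2 could not be tested. Of 5 markers of oligodendrocyte precursors 2 were called higher, C1ql1 (5.35, floored) and Gpr17 (3.84, floored). The median of the precursor list was 1.20, and Cspg4 (-2.83, adjusted p = 0.065) and Pdgfra (-1.52, adjusted p = 0.24) had negative values, with 1 gene called lower by DESeq2. Of 9 microglia markers Sall1 was called higher (4.05, floored) and the complement gene C1qa lower (-4.02), and 6 had negative values (median -0.81). Over all genes tested 7.2% were called higher and 5.88% lower, so few calls are due in a list of this size. Without batch 2 soma library 5 or 6, 4 astrocyte genes were called. In the central controls the astrocyte sum was 1457 to 2545 CPM and the spinal inhibitory sum 203 to 1188 CPM.

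Receptor genes of central synapses were next. Of 15 GABA-A and glycine receptor subunits 6 were called higher and 0 lower, with a median of 3.07 (3.20 floored). Gabra5 was at 23.6, 46.6, 61.0 and 59.0 CPM in central axons and 0.932, 3.31, 7.59 and 8.60 CPM in batch 1 somas, against 0, 0, 0 and 0 CPM in peripheral axons and 1.87, 1.22, 1.02 and 1.49 CPM in batch 2 somas. It was higher than soma in the central branch and at or under the floor in the peripheral branch, which gives a difference of 4.58 on the floored scale (adjusted p = 0.00041). Among 16 ionotropic glutamate receptor subunits 5 were called higher and 0 lower, with a median of 1.49, including the AMPA receptor genes Gria2 (2.19) and Gria1 (3.46). Of 33 Hox genes, which encode the position of a segment along the body axis, 5 were called higher and 0 lower, with a median of 1.62 (1.29 floored). Hoxb6 (3.10) and Hoxa7 (1.65) were among them, the latter with 20.4% of its exon bases shared with a gene on the other strand. Without central axon library 4 the count of glutamate receptor genes was 2 and without batch 2 soma library 8 it was 3. The Hox count was 3 without batch 2 soma library 7 or 8, 8 without batch 1 soma library 1 and 9 without peripheral axon library 2.

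**Figure D2:**
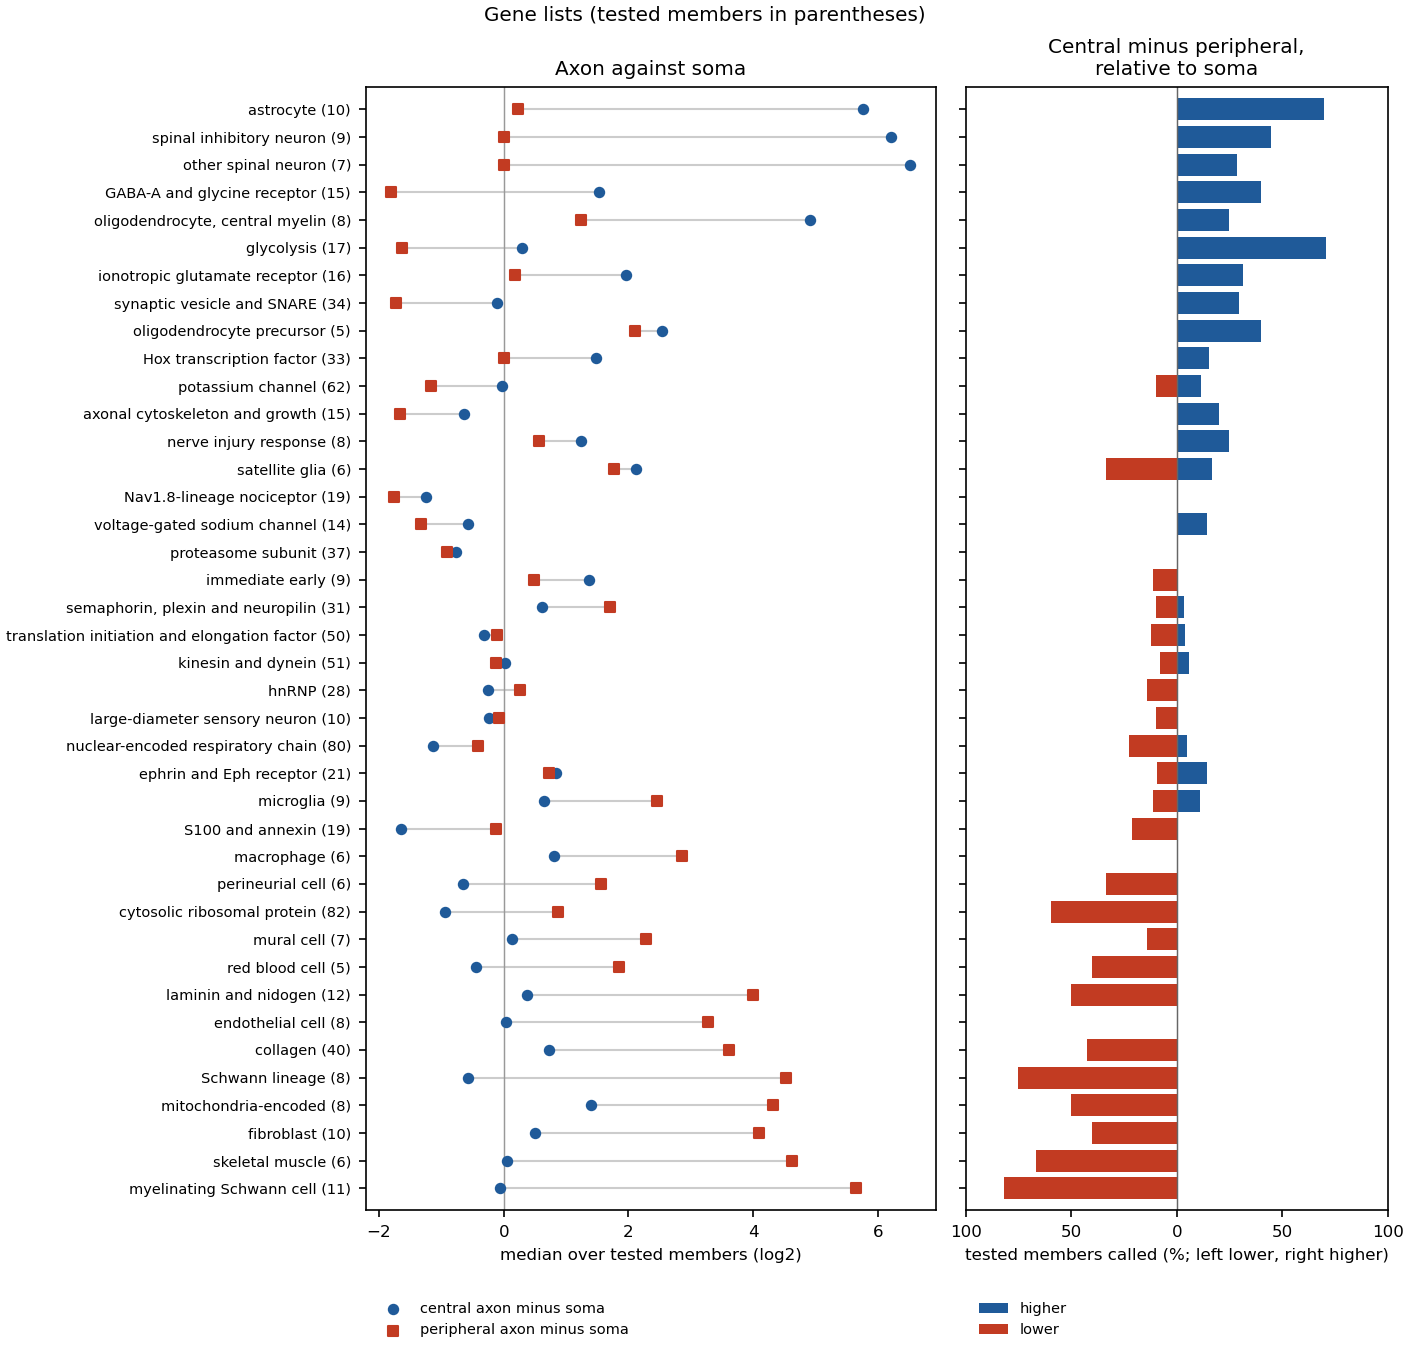
Gene lists with at least 5 members tested; the left panel gives the median log2 difference of central axon minus soma (circles) and of peripheral axon minus soma (squares), and the right panel the percent of tested members called lower or higher between branches. Spinal neuron, astrocyte and oligodendrocyte lists sit at high central values, Schwann and matrix lists at high peripheral values.

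Schwann cell genes lay on the peripheral side. Of 11 markers of myelinating Schwann cells 9 were called lower in central than in peripheral axons relative to soma and 0 higher, with a median of -5.71. Prx, the Schwann cell scaffold protein periaxin, was at 1352, 734, 349.7 and 1226 CPM in peripheral and 14.2, 62.7, 14.4 and 16.5 CPM in central axons, with somas at 7.04 to 51.3 CPM in batch 1 and 3.77 to 15.4 CPM in batch 2. Every peripheral library was above all other Cre libraries, and the difference was -6.53 (SE 0.85, adjusted p = 0.00018). Ncmap, a protein of noncompact myelin (-5.71), Pmp22 (-3.74) and Egr2, the transcription factor that drives peripheral myelination (-5.85), were lower as well. All 11 members were called higher in peripheral axons than in somas, and 2 in central axons. Mbp, which oligodendrocytes express as well, averaged 2407 CPM in central axons and was not called between branches (-2.12, adjusted p = 0.21).

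The list summed to 10437 to 28371 CPM in peripheral axons, 713 to 5187 CPM in central axons, and 358 to 1653 and 450.3 to 661 CPM in their somas. Every peripheral library was above every library of the 3 other Cre groups. Of 8 genes of the Schwann lineage at large 6 were called lower, among them Erbb3, the neuregulin receptor (-7.18), Sox10 (-2.86), S100b (-2.79) and Ngfr, the p75 neurotrophin receptor (-2.63). The myelinating Schwann sum was 8694 to 14983 CPM in the peripheral controls and 504 to 23675 CPM in the central controls, which overlap. In the batch 1 soma controls it was 24.1 to 7626 CPM. The separation of the Cre groups by this sum was thus not seen in the controls, although the list median was negative there too (-4.73). Mbp, which oligodendrocytes express as well, counts into this sum, and the central controls held 381 to 3903 CPM of oligodendrocyte markers. The part of Mbp in the overlap was not tested. Without batch 1 soma library 4, the count of Schwann lineage genes called lower was 3 in place of 6. Satellite glia markers were mixed, with Fabp7 higher (3.63), Cdh19 and the potassium channel gene Kcnj10 lower (-3.81) of 6, and neither of the lower ones was called without batch 1 soma library 4.

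Extracellular matrix and connective tissue genes lay on the same side. Of 40 collagen genes 17 were called lower and 0 higher in central than in peripheral axons relative to soma (median -2.69). Col1a1, the main fibrillar collagen, was at 1043, 1860.0, 1037 and 2232 CPM in peripheral and 146, 549.8, 64.4 and 218 CPM in central axons, without overlap, and at 44.6, 384, 145 and 498 CPM in batch 1 and 47.8, 107, 21.9 and 32.7 CPM in batch 2 somas (difference -5.06, SE 0.94, adjusted p = 0.0023). Of 12 laminin and nidogen genes, parts of the basement membrane, 6 were called lower (median -2.35), including Lama2 of the Schwann cell basal lamina (-4.38). The fibroblast list had 4 of 10 lower and summed to 3839.8 to 6739.9 CPM in peripheral against 321 to 1895 CPM in central axons. Perineurial markers had 2 of 6 lower, Cldn1 (-5.73) and Itgb4 (-2.83). Endothelial (0 of 8) and macrophage (0 of 6) markers had no call, with medians of -2.40 and -1.54, and of 7 mural cell markers Rgs5 was lower (-2.38). With 5.88% of all genes tested called lower, few calls are due in lists of this size. The perineurial count was 1 without central axon library 3, peripheral axon library 4, batch 1 soma library 4 or batch 2 soma library 5 or 7. The mural count was 3 without central axon library 4, peripheral axon library 2 or batch 1 soma library 1 or 3, and 2 without peripheral axon library 3.

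Muscle and blood genes were present in the nerve libraries. Of 6 skeletal muscle genes 4 were called lower (median -4.52), and their sum was 731 to 2963 CPM in peripheral, 20.5 to 156 CPM in central axons and 1010.0 to 22508 CPM in peripheral controls. Acta1, skeletal muscle actin (-4.04), and Ckm, muscle creatine kinase (-6.18), were among them. Of 5 red blood cell genes, the globins Hba-a1 (-2.60) and Hba-a2 (-2.97), which are near-identical copies, were lower. That count was 4 without batch 1 soma library 1 and 1 without batch 2 soma library 8. A single adipocyte marker could be tested, Fabp4, which was lower (-8.33).

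Ranked by adjusted p among genes with more than 3 counts in at least 2 libraries of every group, the leading genes on the central side after Gad1 were of mixed function. Aldoc, Hap1, which binds huntingtin and links cargo to microtubule motors, Hdac6, the tubulin deacetylase, the brain proteoglycan genes Cspg5 and Bcan, the septin gene Sept3, and Fam57b, Nap1l5 and Shd made up the first 10. Hap1 was at 276, 766, 559 and 931 CPM in central axons and 19.7, 13.2, 6.82 and 15.8 CPM in batch 1 somas, with every central library above every soma. In peripheral axons it was at 0.730, 7.97, 1.71 and 8.84 CPM and in batch 2 somas at 7.62, 12.9, 4.58 and 7.95 CPM, which overlap. Its difference was 6.10 (SE 0.78, adjusted p = 0.00017). The others ranged from 3.15 for Sept3 to 6.98 for Shd. For Fam57b the somas differed as well, by -2.09 between batch 1 and batch 2.

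Hdac6 was at 65.7, 109, 124 and 124 CPM in central axons and 17.6, 14.5, 13.3 and 12.2 CPM in batch 1 somas. In peripheral axons it had 9.48, 15.2, 18.1 and 16.3 CPM against 26.0, 25.2, 23.5 and 24.9 CPM in batch 2 somas, and the difference was 3.50 (SE 0.45, adjusted p = 0.00017). Baiap3, a C2-domain protein of vesicle traffic, had the smallest adjusted p of all genes (1.1e-05). It had 17, 47.3, 47.0 and 65.5 CPM in central axons and no count in batch 1 somas, but 26.3, 29.8, 22.4 and 24.1 CPM in peripheral axons and 16.7, 26.3, 24.4 and 19.8 CPM in batch 2 somas. The levels of central and peripheral axons overlap, and the somas differed between batches (adjusted p = 7.4e-08). Central axons were at least 140.4-fold above the floor of batch 1 somas. Amn followed, at 45.1 to 121 CPM in central and 0 to 0.0664 CPM in peripheral axons (floored difference 7.00).

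On the peripheral side, the first 10 genes were Mal, Egfl8, LTO1, Cldn19, Sema3b, Tgfbr3, Ncmap, Utrn, Wwp1 and Prx. Sema3b, a secreted semaphorin, was at 202, 146, 178 and 158 CPM in peripheral and 7.55, 16.9, 12.7 and 8.23 CPM in central axons, with somas at 6.38 to 27.3 CPM in batch 1 and 7.13 to 11.6 CPM in batch 2. The peripheral libraries were above all other Cre libraries, and the difference was -4.71 (SE 0.57, adjusted p = 0.00015). Tgfbr3, the co-receptor betaglycan (-6.10), Utrn, the dystrophin homologue utrophin (-4.09), and Wwp1, a ubiquitin ligase (-3.56), had differences of like sign. Egfl8 (-6.50) shares 34.9% of its exon bases with a gene on the same strand, and LTO1 (-3.80) 15.6% with a gene on the other strand, so that their counts are uncertain. Of genes with a group at the floor, the homeobox gene Meox2 (-7.21, floored), 6030408B16Rik (-5.74) and the thrombospondin gene Thbs4 (-8.91) led.

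No gene of the Nav1.8-lineage nociceptor list was called between branches. Over all genes tested 13.1% were called in either direction, so few calls are due in a list of this size. Of 19 nociceptor genes tested, 0 were called higher and 0 lower, with a median of 0.42 against 0.26 over all genes. That median was 0.20 without central axon library 1 or peripheral axon library 1, 0.90 without peripheral axon library 2 and 0.02 without both shallowest peripheral libraries, and no setting gave a call. The values nearest to a call were those of P2rx3, the ATP receptor of nonpeptidergic nociceptors (1.91, adjusted p = 0.11), and Gfra3, the artemin receptor (1.69, adjusted p = 0.19). The list was below soma in both branches, with medians of -1.25 in central and -1.77 in peripheral axons, and 3 and 13 members called lower. Its sum was 2276 to 10403 CPM in central and 1343 to 5204 CPM in peripheral axons, which overlap, against 8677 to 13398 and 8897 to 11116 CPM in somas. Of 10 genes of large-diameter sensory neurons, Kcna1 was called, as lower. The central controls held 656 to 1617 CPM of the nociceptor list and the peripheral controls 636 to 4313 CPM. The soma controls held 4697 to 12884 CPM in batch 1 and 5759 to 9609 CPM in batch 2, overlapping the Cre somas of each batch.

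Synaptic vesicle genes lay on the central side. Of 34 genes of the vesicle and its fusion machinery 10 were called higher in central than in peripheral axons relative to soma and 0 lower, with a median of 1.37. Rab3a, the vesicle GTPase, was at 988, 810.0, 1254 and 1093 CPM in central axons and 914, 1012, 796 and 759.6 CPM in batch 1 somas, which overlap. In peripheral axons it was at 138, 248, 99.3 and 206 CPM against 832, 709.8, 944 and 1020.0 CPM in batch 2 somas, without overlap, and the difference was 2.52 (SE 0.44, adjusted p = 0.0015), from a central term of -0.13 and a peripheral term of -2.65. Syn2, a synapsin that tethers vesicles, was at 187, 227, 279.7 and 216 CPM in central and 46.7, 77.1, 33.4 and 48.9 CPM in peripheral axons (difference 2.63, SE 0.38, adjusted p = 0.00044). Syn1 (2.91) and the SNARE gene Snap25 (2.06) were higher as well. In peripheral axons 20 of the 34 were called lower than in somas, and in central axons 2.

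The list summed to 7713 to 9978 CPM in central axons, near the 6756 to 9023 CPM of their somas, and to 1948 to 4661 CPM in peripheral axons against 6874 to 9103 CPM in theirs. Spinal neurons also express these genes, and their inhibitory markers were present in central axons at the sums given above. The part of spinal RNA in the synaptic difference was not tested. In peripheral controls the synaptic sum was 1819 to 4141 CPM. Genes of the axonal cytoskeleton and growth had the same direction, with 3 of 15 higher and 0 lower (median 1.13), among them Ina, alpha-internexin (2.57), and Nefl, the light neurofilament (1.63). Of the 15, 13 were lower than soma in peripheral and 3 in central axons. Without batch 2 soma library 7 the count of higher genes was 1, and without peripheral library 2 it was 6.

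**Figure D3:**
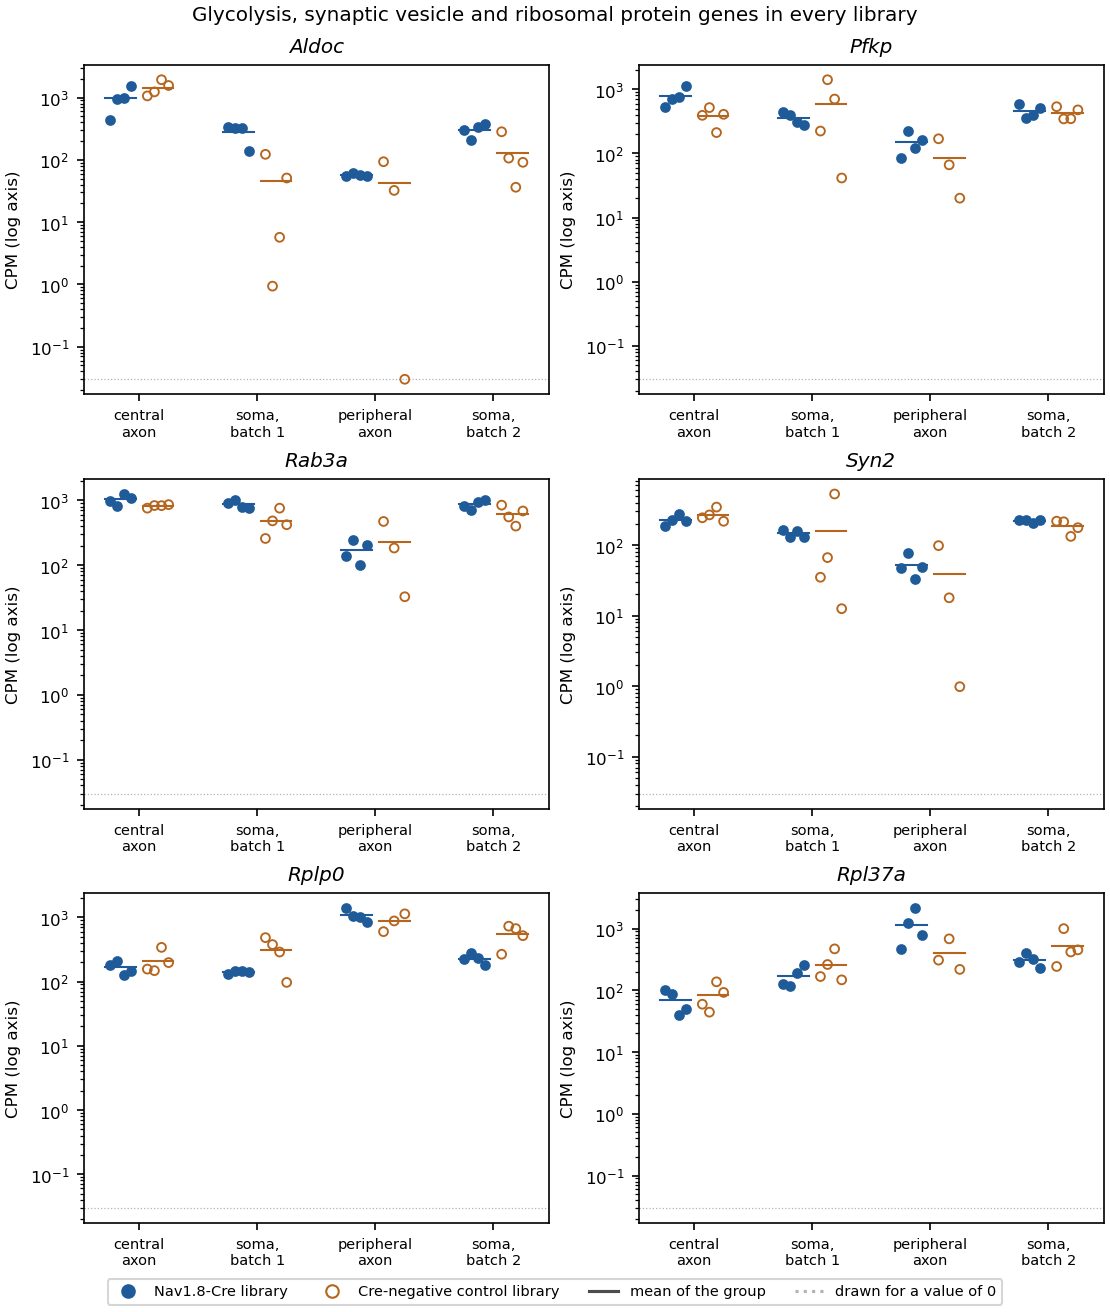
CPM of 2 glycolysis genes (Aldoc, Pfkp), 2 synaptic vesicle genes (Rab3a, Syn2) and 2 ribosomal protein genes (Rplp0, Rpl37a) in each library on a log axis, Cre libraries filled, controls open, lines at group means. The peripheral axon libraries are low for the first 4 genes and high for the ribosomal ones.

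Among the metabolic lists, glycolysis had the largest share of called genes. Of 17 entries tested (Aldoa has 2 identifiers) 12 were called higher and 0 lower, with a median of 1.86. Aldoc, aldolase C, was at 445, 967, 1003 and 1520.0 CPM in central axons against 333, 320.5, 329.9 and 138 CPM in batch 1 somas, all central libraries being above all somas. In peripheral axons it was at 55.7, 62.5, 57.6 and 55.6 CPM, below the 300.2, 208, 335 and 380.3 CPM of every batch 2 soma. The difference was 4.08 (SE 0.51, adjusted p = 0.00017). Aldoc is also an astrocyte gene in the nervous system, and astrocyte markers were high in the same central libraries. The part of astrocyte RNA in the Aldoc difference was not tested. Pfkp and Pfkl, subunits of the rate-limiting phosphofructokinase, differed by 2.62 (SE 0.47) and 2.68 (SE 0.60).

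Hexokinase (Hk1, 1.93), neuronal enolase (Eno2, 1.85) and pyruvate kinase (Pkm, 1.27) followed. In peripheral axons 15 of the 17 were lower than in somas (median -1.64), and in central axons 0 were lower and 2 higher (median 0.29). Central against peripheral axons directly, across batches and without the soma terms, had a median of 0.86. The list summed to 5939.7 to 8274 CPM in central and 2894 to 4281 CPM in peripheral axons, without overlap, and to 3525 to 8126 and 8228 to 11139 CPM in the somas of batch 1 and 2. Gapdh, Pgk1, Pgam1 and Eno1 differed between the somas too, Gapdh with a mean of 65.5 CPM in batch 1 and 1189 CPM in batch 2. Of the 13 other genes 8 were higher between branches, with a median of 1.79, and 10 had lower values in batch 1 than in batch 2 somas. The soma difference is a term of the branch difference, so this split does not remove it. The count depended on single libraries: it fell to 5 without central axon library 4, batch 1 soma library 2 or 3, or batch 2 soma library 7 or 8, to 6 without peripheral axon library 3, and to 7 without peripheral axon library 4 or batch 2 soma library 5. Without both shallowest peripheral libraries 4 were called (median 1.29).

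Ribosomal protein genes were, by number, the largest list on the peripheral side. Of 82 genes tested 49 were called lower in central than in peripheral axons relative to soma and 0 higher, with a median of -1.90. Rplp0, the stalk base of the large subunit, was at 1383, 1038, 1019 and 859 CPM in peripheral axons and 227, 274, 234 and 179 CPM in batch 2 somas. In central axons it was at 179, 211, 128 and 145 CPM and in batch 1 somas at 130.0, 147, 146 and 139.6 CPM, which overlap. All peripheral libraries lay above the other Cre libraries, and the difference was -2.06 (SE 0.37, adjusted p = 0.0019). Rpl37a was below soma in the central branch (100.1, 86.8, 40.3 and 50.7 CPM against 126, 118, 189 and 254 CPM) and stood above it in the peripheral branch (471, 1237, 2131 and 779 CPM against 291, 398, 317 and 233 CPM). Its difference was -3.30 (SE 0.63, adjusted p = 0.0028).

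Over the list the median was -0.94 in central axons, with 29 genes lower than soma and 1 higher. In peripheral axons it was 0.87, with 34 higher and 0 lower. Central against peripheral axons directly, across batches and without the soma terms, had a median of -3.35. The list summed to 27014 to 66416 CPM in peripheral axons, above the 14529 to 21444 CPM of their somas in every library, and to 4572 to 7863 CPM in central axons, which overlaps the 7839 to 13833 CPM of theirs in 1 library. Ribosomal protein genes have many near-identical processed pseudogenes, and how reads that fit several places were counted is not given in the sources used here, so single values are uncertain. For 43 of the 82 the somas differed between batches, all being lower in batch 1. Of these 17 were lower between branches (median -1.39), and of the 39 genes without such a soma difference 32 were (median -2.16). The soma difference is itself a term of the branch difference, and lower batch 1 somas raise the latter. The contrast of these medians therefore follows in part from the split.

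Translation factor genes had calls in both directions, hnRNP genes in the lower direction and proteasome genes none. Over all genes tested 7.2% were called higher and 5.88% lower, so few calls are due in lists of this size. Of 50 initiation and elongation factor genes 2 were higher, the helicase gene Eif4a2 (1.08) and Eif2b1 (1.73), and 6 lower, among them Eif2s2 (-2.22) and Eef1b2 (-2.11), with a median of -0.15. Of 28 hnRNP genes, which package and export mRNA, 4 were lower, including Hnrnpm (-1.65). Of 37 proteasome subunit genes none was called between branches by edgeR's quasi-likelihood test (median 0.26), although 21 were lower than soma in peripheral and 13 in central axons. The counts for translation factors and hnRNPs moved by more than 1.5-fold with libraries of each group: leaving out batch 2 soma library 8 gave 0 higher and 3 lower factors and 1 lower hnRNP.

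Respiratory chain genes went in both directions. Of 8 mitochondria-encoded genes tested 4 were lower in central than in peripheral axons relative to soma (median -3.23): mt-Nd4 (-3.55), mt-Nd6 (-3.36), mt-Nd1 and mt-Nd2 (-3.16), all subunits of complex I. All 8 were called higher than soma in peripheral axons and 1 in central axons, and their sum was 1777 to 10808 CPM in peripheral, 324 to 2628 CPM in central axons and 99.4 to 925 and 172 to 464 CPM in somas. The central and peripheral sums overlap, and without both shallowest peripheral libraries 1 gene was called. Without peripheral axon library 3, batch 1 soma library 4 or batch 2 soma library 6 or 8, the count was 2. These transcripts are made in mitochondria and translated on mitochondrial ribosomes, which carry no L10a tag.

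Of 80 nuclear genes of the chain 4 were higher and 18 lower, with a median of -0.73. The share higher was below the 7.2% over all genes tested, and the share lower was above the 5.88% over all genes. The higher genes were Cyc1 (1.99), Atp5b, the catalytic subunit of ATP synthase (1.92), and the complex III core genes Uqcrc1 (1.77) and Uqcrc2 (1.64). Among the lower genes were small subunits such as Atp5k (-3.30), Ndufa2 (-2.74) and Uqcrh (-2.29). Cox8b and Cox6a2, forms typical of muscle, were also lower, and muscle genes were high in the same peripheral libraries. The part of muscle RNA in these values was not tested. The merged exon length had a median of 3344 bases in the 4 higher genes, 1082 in the 18 lower genes and 1631 in all 80. Over all protein-coding genes it was 4342 in the 1090 higher, 4584 in the 901 lower and 4498 in the 14196 tested. The medians of both terms were below 0, with 33 genes lower in central and 18 in peripheral axons. The count of lower genes ranged from 8 to 24 when single libraries were left out, and the low values came without central axon library 3 or 4, peripheral axon library 3, batch 1 soma library 4 or batch 2 soma library 5 or 8. The count of higher genes was 2 or lower without any single central library, peripheral axon library 4, batch 1 soma library 2 or 3, or batch 2 soma library 5, 7 or 8, with 0 called without soma library 7.

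**Figure D4:**
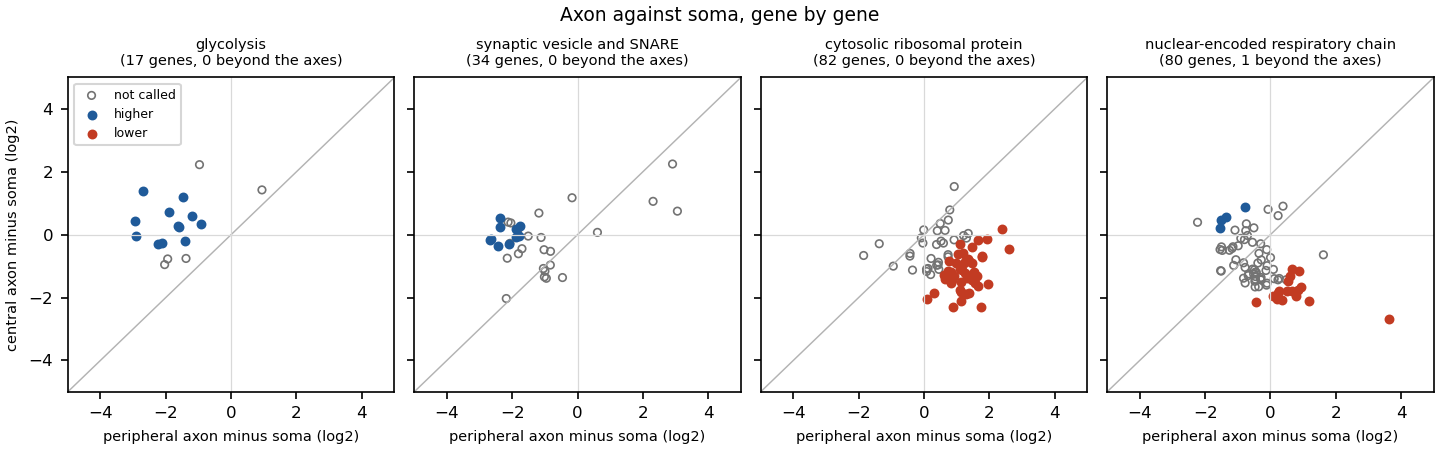
Each point is a gene of the glycolysis (17), synaptic vesicle (34), ribosomal protein (82) or respiratory chain (80) list, with peripheral axon minus soma on the x axis and central axon minus soma on the y axis, both log2 from the edgeR fit. Points above the diagonal are higher in the central branch relative to soma (most glycolysis and synaptic genes), those below it lower (most ribosomal protein genes).

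Ion channel, guidance and transport families had calls, most of them in both directions. Over all genes tested 7.2% were called higher and 5.88% lower, and several of these counts are near those shares. Of 62 potassium channel genes 7 were higher and 6 lower. Kcna1 was at 299, 63.1, 143 and 208 CPM in peripheral axons and 14.6, 3.23, 6.87 and 43.5 CPM in central axons, against 9.94, 17.2, 1.81 and 17.9 CPM in batch 1 and 13.4, 12.3, 5.60 and 13.1 CPM in batch 2 somas, and its difference was -3.51 (SE 0.94, adjusted p = 0.019). Kcna2, its partner beside the node of Ranvier in myelinated fibres, had -2.74, whereas the dorsal horn channel gene Kcnd2 had 6.54. Of 14 voltage-gated sodium channel genes Scn2a (3.38) and Scn3a (4.24), both widely expressed in the central nervous system, were higher and none lower. Of 31 semaphorin, plexin and neuropilin genes 1 was higher and 3 lower, including Sema3g (-7.33) and Plxnd1 (-1.94). Of 21 ephrin and Eph receptor genes 3 were higher, among them Efnb3, the midline ephrin of the spinal cord (6.58), and 2 lower, among them Epha5 (-2.14). Leaving out a single library gave 2 to 6 lower semaphorin genes (5 without peripheral axon library 3, 6 without batch 1 soma library 3) and 1 to 3 lower ephrin or Eph genes, with 1 for 9 of the 16 libraries. Without peripheral axon library 2, 11 potassium channel genes were higher, and 4 were without any of 9 other libraries.

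Of 51 kinesin and dynein genes 3 were higher, including Kif21b (3.88), and 4 lower, including Kif1c (-3.34), with a median of 0.20. These shares were near the 7.2% higher and 5.88% lower over all genes tested. Of 19 S100 and annexin genes 4 were lower, S100b, S100a4, S100a6 (-2.86) and S100a13. Of 9 immediate early genes, which respond within minutes to activity or handling, Nr4a1 was lower (-2.53) and none higher. Few calls are due in a list of that size at 5.88% lower over all genes tested. Of 8 genes of the nerve injury response, Npy and Ecel1 were higher. Npy, a neuropeptide that dorsal horn interneurons also make, was at 43.3, 54.3, 44.9 and 48.0 CPM in central axons and 73.0 to 148 CPM in the central controls, and had no count in batch 1 somas. The other 6 members of that list were not called. Leaving out peripheral axon library 2 gave 9 higher kinesin and dynein genes, and leaving out batch 1 soma library 4 gave 1 lower kinesin or dynein gene and 2 lower S100 and annexin genes.

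In the Cre-negative libraries, the medians of the spinal neuron, astrocyte, oligodendrocyte, Schwann, fibroblast and collagen lists had the same sign as with Cre. Among controls the median was 7.46 for spinal inhibitory neurons, 6.77 for astrocytes, -4.73 for myelinating Schwann cells and -2.38 for collagens, beside 0.23 over all genes. The microglia and macrophage lists had the opposite sign, at 3.20 and 1.11 in controls against -0.81 and -1.54 with Cre. The perineurial median was -0.37 in controls, or 0.25 without soma control 3 of batch 1. Soma control 3 of batch 1 stood apart, with a TMM scaling factor of 0.0362, and the medians of the neuronal and metabolic lists moved with it. With it the control medians were -1.62 for glycolysis, 0.44 for synaptic vesicle genes and -3.54 for ribosomal proteins. Without it they were 1.21, 2.15 and -0.60, the same signs as 1.86, 1.37 and -1.90 in the Cre libraries. For the nociceptor list the control median was -3.52, or -3.01 without that library, against 0.42 with Cre.

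The test of the difference itself, Cre minus control over all 31 libraries, called 8 of 18803 genes (0.0425%), 2 higher and 6 lower, with 2839 genes at an unadjusted p under 0.05. It rested on single libraries, with 1292 genes without soma control 3 of batch 1 and 0 without peripheral control 1 or 2. Leaving out peripheral axon Cre library 1 gave 6 genes, and leaving out any other single Cre library gave 1. The count was also 1 without any single batch 2 soma control. Within these data, a difference between branches in ribosomes of the tagged neurons and one in the RNA that the pulldown recovers from the surrounding tissue cannot be told apart for most genes. As a last description, 3157 genes (18.9%) were above every batch 1 soma in all 4 central axon libraries, and 3222 (19.3%) above every batch 2 soma in all 4 peripheral axon libraries. Of the 11 myelinating Schwann genes 11 were so in peripheral and 1 in central axons, and of the 10 astrocyte genes 9 were so in central and 1 in peripheral axons.

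**Figure D5:**
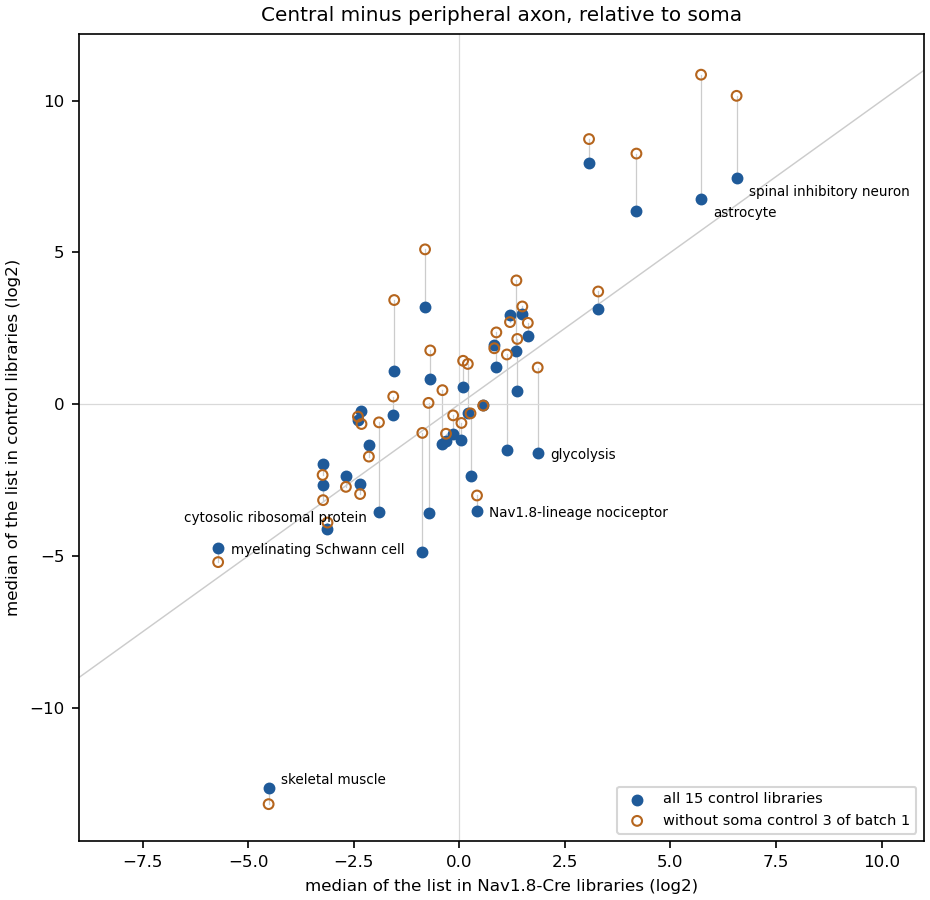
Median log2 difference between branches of each gene list in the Cre libraries (x axis) and in the control libraries (y axis), with all 15 control libraries and without soma control 3 of batch 1. Spinal neuron, astrocyte and oligodendrocyte lists are positive and Schwann and collagen lists negative in both. The control median of the glycolysis list changes sign when soma control 3 of batch 1 is left out.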

How the data were processed

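TRAP-seq libraries of central axons, peripheral axons and somas were compared. The deposited files are 2 tables, 1 per batch, of unnormalised read counts for each gene with 55536 gene identifiers, all of which matched the mm10 annotation used here; no library was pooled and no column of per-sample values was left unused. Per the submitters' processing notes STAR 2.7.2b and mm10 were used, and the counting program and its handling of strand, duplicates and multiply mapped reads are not given in the sources used here. A pair of soma control columns of batch 1 carry the same name and were called a and b, and peripheral axon control 3 was not analysed here.

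The 16 Cre libraries were fitted together in edgeR 4.0.16 (R 4.3.3) on the deposited counts, with filterByExpr (minimum count 10, minimum total 15), TMM scaling and glmQLFTest, and a gene was called at an adjusted p (Benjamini-Hochberg, over all genes tested) under 0.05. The SE is the log2 difference divided by the square root of the F statistic. The displayed CPM were scaled by library totals, 4.10 to 19.6 M counts in Cre and 3.60 to 18.1 M in control libraries. Where a group was at or under 3 counts, a floored value is given. It is the difference of log2 group mean CPM, each mean raised to at least the mean 3-count floor of its libraries. Without molecular identifiers this floor covers counting error only. Control libraries were fitted alone, and the Cre minus control difference over all 31.

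Named genes were the 4 markers, Scn10a and Rpl10a, the 10 genes per direction with the smallest adjusted p and an absolute log2 difference of at least 1, 3 more per direction among genes with a group at the floor, up to 3 members of each of the 41 lists, and up to 3 genes per direction of the Cre minus control difference. Other list members are named as examples and were chosen after their values were seen. The comparison, its members, the marker and pathway lists and the tests were chosen with earlier results of these data known. Alternatives were DESeq2 1.42.0, voom in limma 3.58.1 with and without quality weights, other scalings and filters, a replicate block, all libraries in 1 fit and leaving out libraries. The fitting code was tested on simulated data.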

Additional observations from a re-analysis of the deposited data

Results flagged for a closer look

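The branch difference itself was a test between axon types and called 2187 genes. The same difference was larger or smaller with Cre than without it for 8 genes: Scn11a, the nociceptor sodium channel Nav1.9 (11.86), and the predicted gene Gm49027 (17.64) in the positive direction, and Mettl23 (-10.46), Hmgcll1 (-17.56), Chd1 (-10.91), Mtif3 (-10.04), Wdr48 (-10.72) and Zfp958 (-18.62) in the negative direction. These are fitted values that depend on the prior count, because control groups include libraries without a count. The number of genes called was 1 without any single Cre library other than peripheral axon library 1, or without any single batch 2 soma control. Scn11a was at 23.6 to 136 CPM in central and 11.4 to 81.5 CPM in peripheral axons with Cre, and without Cre it had no count in central and 0 to 74.8 CPM in peripheral libraries. Chd1, Mtif3 and Wdr48 fell outside the rule for named genes and were added to complete the 8.

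Single libraries stood apart from the 3 others of their group in 10 of 80 groups of 4, where chance flags about 1 in 20. In batch 1, soma library 4 had 194.8 CPM of other spinal neuron genes (89.0 to 97.8 in the others), 1215 CPM of Schwann lineage genes (462 to 568) and 13.76 CPM of Rpl10a (40.5 to 44.2), and soma library 1 had 98.7 CPM of skeletal muscle genes (22.6 to 35.3). Among central axons, library 1 had 155.7 CPM of muscle genes (20.5 to 36.1), library 2 had 3.677 CPM of Cldn19 (0.189 to 0.452) and library 3 had 11.12 CPM of Mal (24.3 to 25.8). Peripheral axon library 4 had 1.387 CPM of Gad1 (0.664 to 0.732) and 0.3467 CPM of Slc12a5 (0 in the others). Soma library 7 of batch 2 had 43810 CPM of respiratory chain genes, against 33340 to 34380 in the others.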

How the results depend on the processing

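Of the 112 named genes called between branches, 112 stayed called with DESeq2, with RLE, TMMwsp or library size scaling and with the stricter filter, 107 with voom, 103 without both shallowest peripheral libraries, 12 in a fit of 30 libraries (all but soma control 3 of batch 1) and 0 in the fit of all 31, and none of these turned direction. The latter fits take the control libraries' spread into the test. Between branches, DESeq2 called 3290 genes, voom with quality weights 3630, the 30-library fit 19 and the 31-library fit 1. Central axon against soma gave 3528 with DESeq2, 3298 with voom, 4188 with quality weights, 44 and 0 in the 30- and 31-library fits and 3765 without both shallowest peripheral libraries, an alternative chosen after seeing the data like the 30-library fit. Peripheral axon against soma gave 7584 with quality weights, 179 and 33 in those fits and 2850 without the shallowest libraries. The difference in controls called 731 genes with DESeq2, 3 with library size scaling, 144 without a filter, 22 with voom and 184 with quality weights. Cre minus control called 1042 with DESeq2, 650 with library size scaling, 407 without a filter and 0 with voom, also with weights. The cause of these changes was not tested. The median over all genes between branches was 0.26, and 0.15 with RLE or TMMwsp, 0.33 with library size and 0.47 with voom.

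Leaving out 1 library gave 1394 to 2856 genes between branches, 967 to 3072 for central axon against soma, 3116 to 5517 for peripheral axon against soma, 0 to 79 in controls (79 without soma control 3 of batch 1) and 0 to 1292 for Cre minus control. Central axon against soma dropped by more than 1.5-fold without central library 2 (1266), 3 (1448) or 4 (967) or batch 1 soma library 1 (1447) or 3 (1277), and peripheral axon against soma to 3173 and 3116 without batch 2 soma library 7 or 8. Named genes that changed sign were Scn10a (0.036 without a filter, and -1.07 to 0.58 with a library left out), Scn11a (-1.04 to 0.052), Zfp958 (0.73 with voom, and -1.25 to 0.12) and Adgre1 (-6.34 to 2.32, positive without batch 1 soma library 2). With a replicate block 2087 genes were called. Same-numbered central and soma libraries correlated with r of 0.196, -0.0049, 0.088 and 0.184 in their deviations. The mean was 0.116, against -0.038 for different numbers. These values do not settle whether the numbers are pairs, and the main fit did not take them as pairs. Depth limits the low genes: peripheral libraries 1 and 3 had floors of 0.730 and 0.732 CPM.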
